A study of Homo sapiens with 4 samples.

Results

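The DDX and DHX proteins are RNA helicases, named for a conserved helicase motif that reads DEAD or DEAH in the single-letter amino acid code. Members were all array probes whose gene symbol begins with DDX or DHX followed by a digit, which gave 76 of the 47217 probes and 53 of the 18348 named genes. Among the 53, DHX33-DT is a divergent transcript and no helicase, which left 52 helicase genes, and 48 of these were bright enough to be tested. RNA levels came from Illumina bead arrays. The cells were H9, a widely used human embryonic stem cell line. The groups were cells 24 h after gamma irradiation (2 arrays) and cells before it (0 h, 2 arrays), and the series title links irradiation with gene targeting. All cells were of the same line, carried no stated genetic change and were grown in serum replacement medium with basic FGF. The series title calls the dose low and the labels give no value for it. They do not say whether replicates were separate cultures. No unirradiated culture at 24 h was analysed here, so irradiation and a day in culture cannot be told apart. The spread that p-values rest on is thus that among the arrays given, and it may be technical only.

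RNA helicases use the energy of ATP to open short RNA duplexes, to strip proteins from RNA or to clamp onto it. Many of them work in the nucleolus, where precursors of ribosomal RNA are cut, folded and packed with proteins. Others drive the rearrangements of the spliceosome, carry messenger RNA through nuclear pores, help the ribosome to scan leader sequences, hold transcripts in decay bodies, or recognise viral RNA in the cytoplasm. Fast-growing cells, pluripotent ones among them, make large numbers of ribosomes.

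Of the 48 tested helicase genes, 40 lay below 0 and 8 above 0 in the comparison of 24 h with 0 h, with a median log2 change of -0.20. The median over all 11030 tested genes was -0.01. With limma, 0 of the 48 passed an adjusted p of 0.05, against 2.28% of all tested genes. At an unadjusted p under 0.05 there were 15 lower helicases and 1 higher, beside 15.3% of all tested genes lower and 15% higher. Both 24 h arrays lay below both 0 h arrays for 35 of the 48 (72.9%), where 31.3% of all tested genes did so, and above both for 8 (16.7%), where 30.3% of all tested genes did so. The counts over the 48 include DDX6, which was detected at 0 h alone. Of the 45 helicases detected on all 4 arrays, 37 lay below 0, with changes from -0.73 to 0.56 and a median of -0.20. Both 24 h arrays lay below both 0 h arrays in 33 of the 45 (73.3%) and above both in 8 (17.8%). At an unadjusted p under 0.05, 13 of the 45 were lower and 1 higher.

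Brightness differed somewhat between the groups, and all 4 arrays lay on 1 slide at positions that differ between the groups, which leaves position confounded with group. Per array, 19705 and 20068 probes were detected at 24 h and 20433 and 20443 at 0 h, and the median raw intensity was 134.7 to 143.8 at 24 h and 158.4 to 175.2 at 0 h. The helicases are mostly bright genes, with 37 of the 48 above the median signal of all tested genes. Among genes above that median the median change was -0.20 for those 37 helicases and -0.01 for all 5515 genes, and 31 of the 37 helicases lay below 0 against 51.3% of all genes there. Of 11 pluripotency markers tested, all were detected on all 4 arrays, 2 lay above 0 (POU5F1 at 0.22 and NANOG at 0.31), 9 lay below and 0 passed. Their summed linear signal was 54364 to 56623 at 24 h and 63658 to 65135 at 0 h. The brightest of them, LIN28A (-0.12), L1TD1 (-0.37) and PODXL (-0.13), add most to that sum. DNMT3B had the lowest change of the 11, at -0.72. Of 15 markers of fibroblasts and mesenchyme, 9 were tested and all lay above 0. Of the 9, 5 passed, against 2.28% of all tested genes. Their summed signals were 21466 to 21934 at 24 h and 12671 to 12759 at 0 h. COL3A1, LUM, DCN, POSTN, FAP and TWIST1 were not detected on at least 2 arrays and were not tested. Few markers of other lineages were tested, and 0 of them passed. Above 0 lay 1 of 3 for neurectoderm, 1 of 2 for mesoderm, 0 of 1 for endoderm and 1 of 1 for trophoblast. The part of these markers in the values of the helicases was not tested, and in bulk RNA fewer cells of a type and less RNA per cell cannot be told apart.

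**Figure D1:**
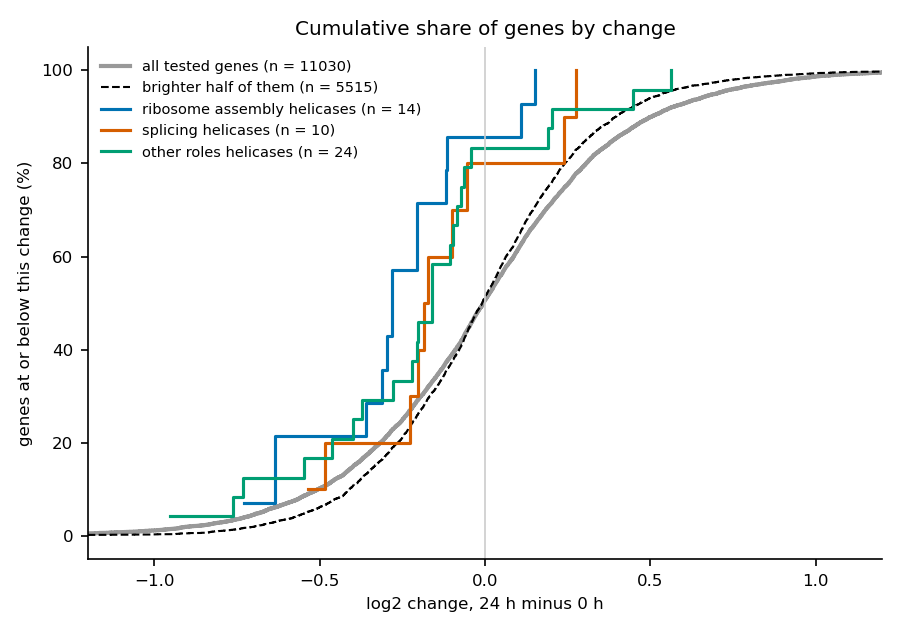
Cumulative share of genes (vertical axis, %) by log2 change at 24 h minus 0 h (horizontal axis) for the 14 ribosome assembly, 10 splicing and 24 other helicases, for all 11030 tested genes and for the 5515 brightest of them. The 3 helicase curves lie left of the curves for all genes over most of the range, with medians of -0.28, -0.18 and -0.16. The curve for other helicases includes DDX6, which was detected at 0 h alone.

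Helicases of ribosome assembly had the lowest median of the 3 role groups, -0.28 over 14 tested genes. Other roles is a mixed group, in which the 4 mRNA export helicases had a median of -0.30 and the 2 RNA sensors 0.17. On the arrays, 12 of the 14 ribosome assembly helicases (85.7%) lay below both 0 h values at 24 h, where 31.3% of all tested genes did so. The other 2 (14.3%) lay above both, against 30.3% of all tested genes, so that none overlapped. None passed limma's test over all genes (smallest adjusted p = 0.0523). At an unadjusted p under 0.05, 6 were lower (42.9%), beside 15.3% of all tested genes. DDX54, a nucleolar helicase of large-subunit assembly, read 7.75 on both arrays at 24 h and 8.40 and 8.56 at 0 h, in normalized log2 signal. Its 24 h arrays agreed to the second decimal and lay well under both 0 h arrays, for a log2 change of -0.73 ± 0.11 (SE of the fit; adjusted p = 0.0523). DDX49, whose yeast counterpart Dbp8 acts in small-subunit maturation, read 7.04 on both arrays at 24 h and 7.80 and 7.55 at 0 h. The groups again did not overlap, and the change was -0.64 ± 0.13 (adjusted p = 0.0656).

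DHX37, the helicase that releases the U3 small nucleolar RNA from the small-subunit precursor, read 10.02 and 10.26 at 24 h and 10.71 and 10.84 at 0 h. It was measured by a pair of probes with the same sign, at -0.64 ± 0.14 (adjusted p = 0.0698) for the brighter one and -0.81 for the dimmer one. DDX21, an abundant nucleolar helicase that binds ribosomal RNA and its small nucleolar guides, read 11.76 and 11.71 at 24 h and 12.15 and 12.04 at 0 h. Its change of -0.36 ± 0.11 was smaller and did not pass (adjusted p = 0.112), although all 4 values kept to their sides. DDX52 (-0.31), DDX51 (-0.30), DDX10 (-0.28) and DDX55 (-0.28), further helicases of pre-ribosome processing, lay in a narrow band below 0. DDX31 and DDX47 followed at -0.21 each on their brighter probe, with the second probe at -0.02 for DDX31 and at 0.00 for DDX47. DDX56 stood at -0.12. DHX33, a nucleolar DEAH helicase, read 9.95 and 10.11 at 24 h and 10.17 and 10.12 at 0 h (-0.11 ± 0.11), with a gap between the groups far smaller than the distance between replicates. The remaining pair stood above 0. DDX24 read 10.99 and 10.98 at 24 h and 10.85 and 10.81 at 0 h (0.15 ± 0.10, adjusted p = 0.374), and DDX27, a partner of the PeBoW complex of large-subunit assembly, read 8.81 and 8.84 at 24 h and 8.70 and 8.73 at 0 h (0.11 ± 0.10, adjusted p = 0.522). When arrays were scaled to the 75th percentile, DDX24 stood at 0.008 and the sign of DDX27 turned to -0.03, so neither has a settled direction.

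**Figure D2:**
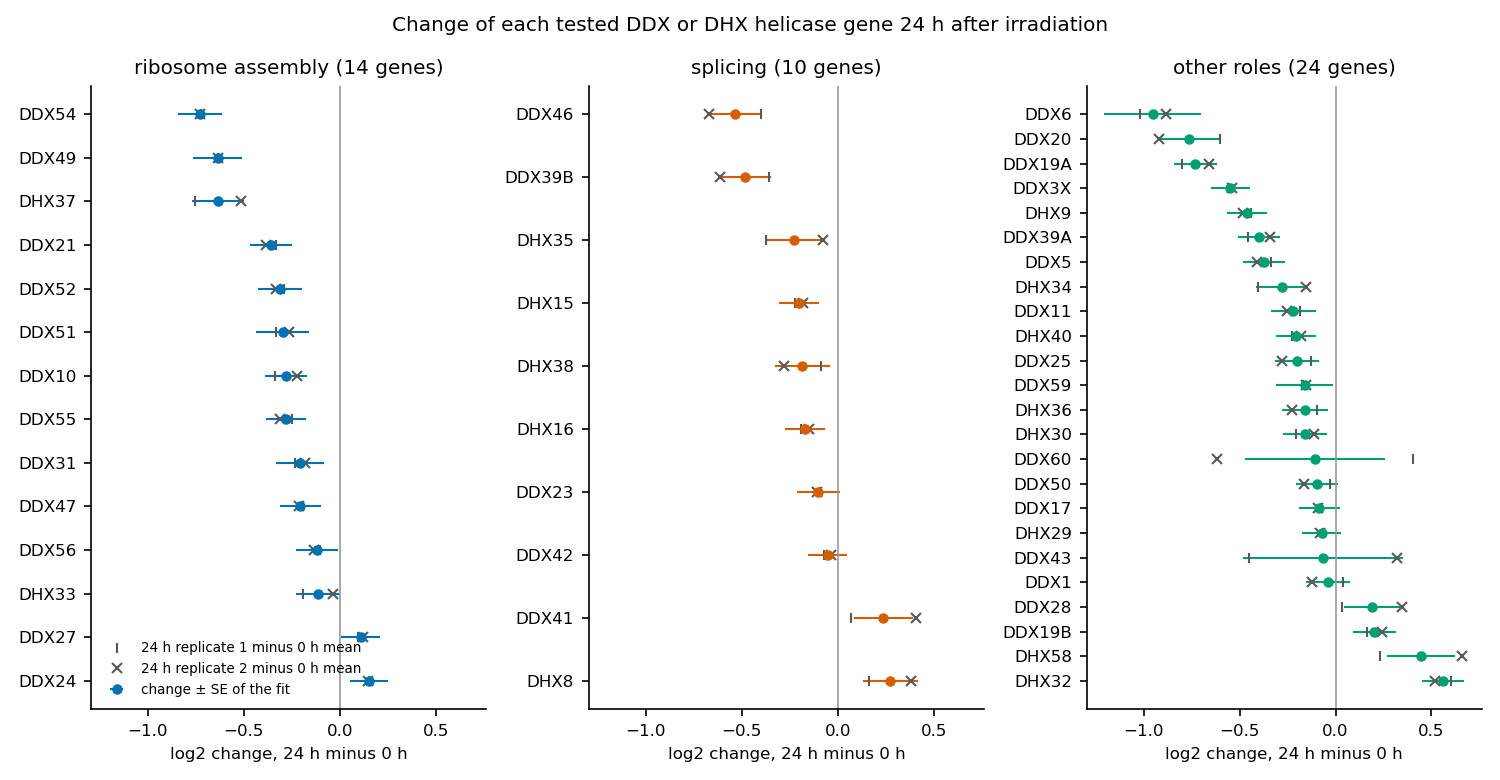
Log2 change at 24 h minus 0 h (horizontal axis) for each tested helicase gene by role, with coloured points and bars for the change and the standard error of the fit, and ticks and crosses for each 24 h array minus the 0 h mean. Values run from -0.73 (DDX54) to 0.15 (DDX24) in ribosome assembly, from -0.54 (DDX46) to 0.27 (DHX8) in splicing and up to 0.56 (DHX32) in other roles, where the point for DDX6, not above background at 24 h, is not a measured change; the 2 arrays lie farthest apart for DDX60 and DDX43.

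Splicing helicases had a median of -0.18, with 8 of 10 below 0 and 0 past the threshold (smallest adjusted p = 0.0911). At an unadjusted p under 0.05 there were 2 of 10 lower and 0 higher, beside 15.3% of all tested genes lower and 15% higher. In either direction the share was 20%, against 30.3% of all tested genes. DDX46, the human Prp5, which prepares the U2 particle for the branch point, read 9.42 and 9.15 at 24 h and 9.87 and 9.77 at 0 h. The groups were apart by more than the 24 h arrays differed from each other, for a change of -0.54 ± 0.14. DDX39B, also known as UAP56, which acts in early spliceosome assembly and in export, read 12.23 and 11.97 at 24 h and 12.65 and 12.52 at 0 h (-0.49 ± 0.14, adjusted p = 0.103). That value comes from the brightest of its 3 kept probes, and the dimmer ones stood at -0.05 and 0.06. DHX35, a DEAH protein found in catalytic spliceosomes, read 8.47 and 8.77 at 24 h and 8.80 and 8.90 at 0 h (-0.23 ± 0.15), with less than the replicate spread between the nearest arrays.

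The DEAH helicases that drive the later steps of the cycle lay on both sides of 0. DHX16 (-0.17), which acts before the first catalytic step, DHX38 (-0.18), which acts before the second, and DHX15 (-0.20), which takes the intron lariat complex apart, did not pass, with adjusted p of 0.262 to 0.437. DHX15 was measured by 2 kept probes, at -0.20 and -0.22. DHX8, which releases the spliced messenger RNA, was on the other side of 0, reading 6.90 and 7.12 at 24 h and 6.63 and 6.84 at 0 h (0.27 ± 0.14, adjusted p = 0.271). DDX41, a spliceosomal helicase mutated in inherited myeloid neoplasms, read 9.89 and 10.23 at 24 h and 9.87 and 9.77 at 0 h (0.24 ± 0.15, adjusted p = 0.36), so that 1 of its 24 h arrays lay beside the 0 h values. The smallest changes of the group were those of DDX42, an SF3b-associated protein, at 11.24 and 11.28 at 24 h and 11.33 and 11.29 at 0 h (-0.05 ± 0.10), and of DDX23, of the U5 particle, at 9.92 and 9.91 at 24 h and 9.94 and 10.09 at 0 h (-0.10 ± 0.11).

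Among the 24 helicases with other roles the median was -0.16, 20 lay below 0, and 0 passed. The 24 and the 20 include DDX6, which was kept through its 0 h arrays alone and so gives no direction. The smallest adjusted p of all 48 belonged to DDX19A, which remodels messenger RNA-protein particles at the cytoplasmic face of the nuclear pore. DDX19A read 8.28 and 8.42 at 24 h and 9.10 and 9.06 at 0 h, a change of -0.73 ± 0.11 (adjusted p = 0.0516). Its close paralog DDX19B, also an export factor, read 11.14 and 11.22 at 24 h and 10.91 and 11.04 at 0 h. That is 0.20 ± 0.11 (adjusted p = 0.296) on the brightest of 3 kept probes, with 0.17 and -0.05 on the others. On those 2 dimmer probes of DDX19B the groups overlapped, so a value above 0 with the groups apart rests on its brightest probe alone. All 3 kept probes of DDX19B stood above the -0.73 of DDX19A. The difference between the paralogs was not tested, and probes of such similar genes can share target. The export helicase DDX39A, a paralog of DDX39B, read 12.03 and 12.14 at 24 h and 12.53 and 12.44 at 0 h (-0.40 ± 0.11). DDX25, known from male germ cells, was measured by 2 kept probes of opposite sign, -0.20 and 0.20.

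**Figure D3:**
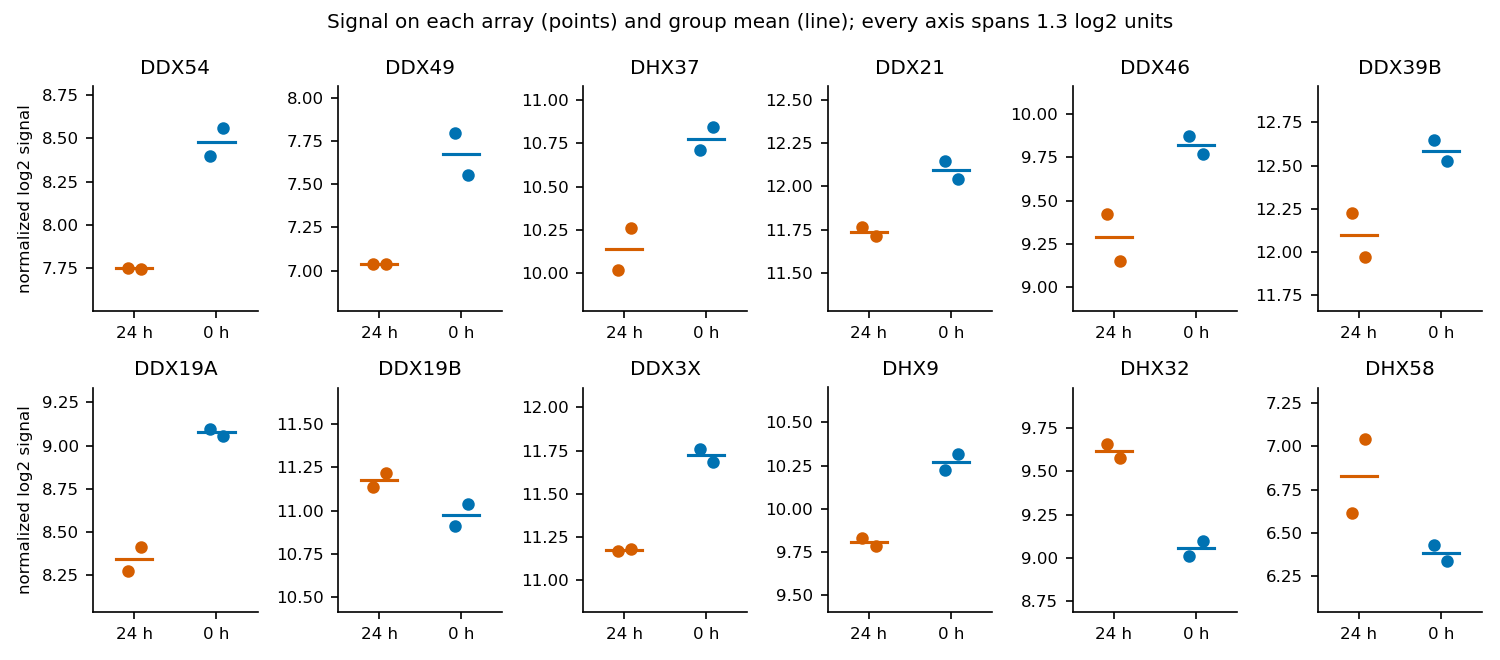
Normalized log2 signal (vertical axis, each spanning the same width) on every array of 12 helicase genes, with 24 h on the left and 0 h on the right, points for arrays and lines for group means. In all 12 the groups do not overlap; DDX19B, DHX32 and DHX58 are higher at 24 h and the other 9 are lower, and the replicates of DHX58 are far apart at 24 h (6.61 and 7.04).

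The sequences just upstream of the annotated start are shown for DDX54 and DHX32, as the ribosome assembly member with the lowest change and the helicase with the highest change, and for the DDX19A and DDX19B paralogs. They are the 150 bases before the start in RefSeq on GRCh38.p14, and capitals mark matches, on either strand, to an E-box (CACGTG), an ETS site (CCGGAAG), part of an NRF1 site (GCATGCGC), a CCAAT box (CCAAT) or a TATA box (TATAAA).
DDX54 (chr12:113185479-113185628, minus strand): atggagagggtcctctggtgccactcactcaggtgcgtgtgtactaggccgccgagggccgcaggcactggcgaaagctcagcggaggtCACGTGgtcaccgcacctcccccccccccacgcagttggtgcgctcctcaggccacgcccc
DHX32 (chr10:125881293-125881442, minus strand): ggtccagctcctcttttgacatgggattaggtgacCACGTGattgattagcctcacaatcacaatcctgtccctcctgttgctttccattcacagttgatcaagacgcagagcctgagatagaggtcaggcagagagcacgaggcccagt
DDX19A (chr16:70346753-70346902, plus strand): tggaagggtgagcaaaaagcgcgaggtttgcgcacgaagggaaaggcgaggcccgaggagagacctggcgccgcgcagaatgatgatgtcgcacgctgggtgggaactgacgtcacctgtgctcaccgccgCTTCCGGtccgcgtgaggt
DDX19B (chr16:70294627-70294776, plus strand): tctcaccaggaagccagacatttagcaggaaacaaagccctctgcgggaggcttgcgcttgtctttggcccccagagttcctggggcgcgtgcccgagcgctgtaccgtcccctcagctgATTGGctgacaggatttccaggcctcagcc

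An E-box stood in the windows of DDX54 (log2 change -0.73) and DHX32 (0.56). These were picked by their changes, so their opposite sides of 0 were fixed in advance. The other E-box matches were in DDX31 (-0.21), DDX5 (-0.37 on its brightest probe), DHX35 (-0.23) and DHX40 (-0.20). The paralogs differed in their letters, with an ETS match in DDX19A and a CCAAT match in DDX19B. Any link of these letters with the changes was not tested. Windows were found for 44 of the 48 helicases. The E-box was in 6 of these 44 (13.6%) and in 4.68% of all 27305 promoter windows, the ETS site in 12 (27.3%) and 7.18%, the NRF1 letters in 4 (9.09%) and 2.33%, and the CCAAT box in 15 (34.1%) and 24.4%. Among the 8884 tested genes with a window, the shares were 6.57%, 12.9%, 4.05% and 27.6% in the same order. The TATA box was in 0 of the 44, in 3.28% of the windows of tested genes and in 7.05% of all windows. A match describes the letters and not binding, and a missing match says only that these letters are not in this window.

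DDX3X, which helps ribosomes start on structured messenger RNAs, read 11.17 and 11.18 at 24 h and 11.76 and 11.68 at 0 h. Its replicates were tight and its groups apart, with a change of -0.55 ± 0.10 (adjusted p = 0.0623). DDX6, the helicase of processing bodies and of translational repression, was dim. It read 5.09 and 5.22 at 24 h, where it was not well above background on either array, and 6.45 and 5.76 at 0 h. DDX6 passed the filter through its 0 h arrays alone, which fixes its direction, so no direction is read from it. Its 0 h mean lay 1.53-fold above a bound for 24 h, with the 0 h replicates far apart, and DDX6 did not pass (adjusted p = 0.0933). That bound takes, for each 24 h array, the larger of the weakest detected signal and the DDX6 signal itself. DHX34, a factor of nonsense-mediated decay, stood at -0.28, DHX36, which unwinds G-quadruplexes, at -0.16, and DHX29, which aids scanning on structured leaders, at -0.07.

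DDX20, also called Gemin3, a part of the SMN complex that builds small nuclear ribonucleoproteins, read 5.67 and 5.36 at 24 h and 6.17 and 6.37 at 0 h. DDX20 was detected on 1 of the 2 arrays at 24 h and on both at 0 h, and its change of -0.76 ± 0.16 did not pass (adjusted p = 0.0686). Its second 24 h value lay under the weakest detected signal of that array (5.47), so the size of the change is uncertain. DDX5 and DHX9, widely used cofactors of transcription and RNA processing, showed disagreement among their probes. The brightest probe of DHX9 read 9.83 and 9.79 at 24 h and 10.22 and 10.32 at 0 h (-0.46 ± 0.11, adjusted p = 0.0765), while its dimmer probes stood at 0.54 and 0.26. For DDX5 the brightest probe read 13.03 and 12.96 at 24 h and 13.32 and 13.42 at 0 h (-0.37 ± 0.11, adjusted p = 0.108), and the second one, detected on 1 array of each group, read 5.24 and 6.69 at 24 h and 5.74 and 5.21 at 0 h (0.49). DDX17, the paralog of DDX5, read 8.10 and 8.08 at 24 h and 8.23 and 8.12 at 0 h (-0.08 ± 0.11). DDX1, a part of the tRNA ligase complex, had the smallest change of all 48, at 12.28 and 12.12 at 24 h and 12.22 and 12.25 at 0 h (-0.04 ± 0.11), and its groups overlapped.

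**Figure D4:**
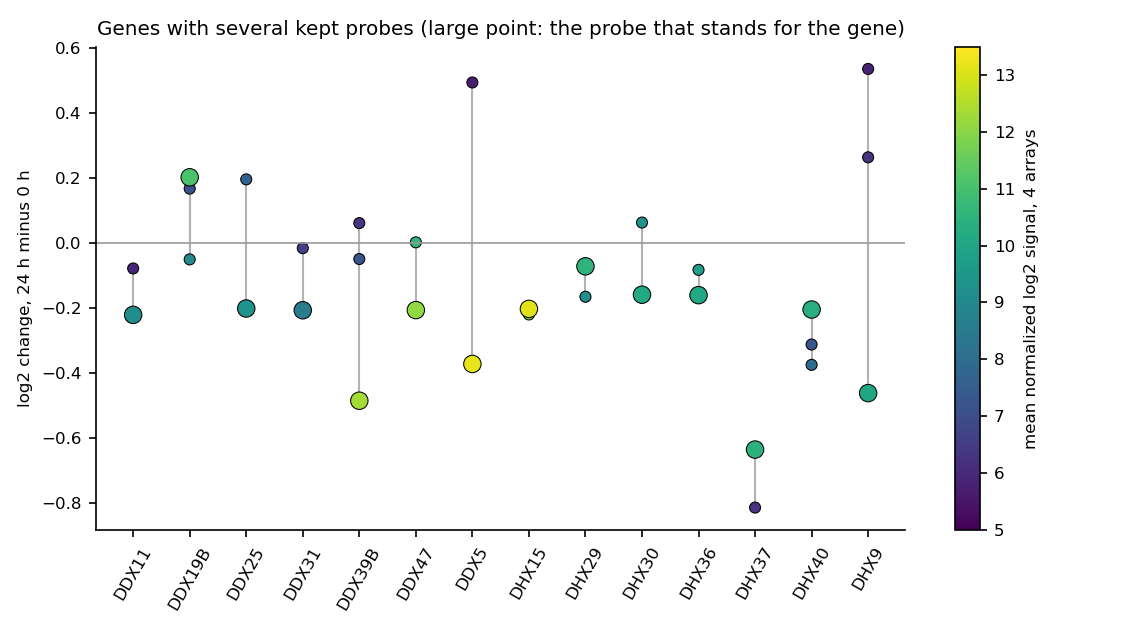
Log2 change at 24 h minus 0 h (vertical axis) of every kept probe of the 14 helicase genes with several kept probes, coloured by mean normalized log2 signal, with the large point for the probe that stands for the gene. In 7 genes all probes have the same sign; the widest splits are in DHX9 (-0.46 to 0.54) and DDX5 (-0.37 to 0.49), where the probes above 0 are dim.

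In 7 of 14 genes with several kept probes all probes had the same sign, and 34 of the 48 rest on 1 kept probe. The direction of DHX9 and DDX5 turned when the mean of their probes was used, to 0.11 and 0.06. DHX37 and DHX40, by contrast, lay below 0 on every kept probe, DHX40 at -0.20, -0.31 and -0.37.

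DHX32, a DEAH protein whose substrate is less settled, was the sole helicase above 0 at an unadjusted p under 0.05. It read 9.66 and 9.58 at 24 h and 9.01 and 9.10 at 0 h, a change of 0.56 ± 0.11, or 1.48-fold (adjusted p = 0.0631). The gap between the groups was several times the distance between replicates. Among cytoplasmic RNA sensors, DHX58, also called LGP2, which tunes signalling by RIG-I and MDA5, read 6.61 and 7.04 at 24 h and 6.43 and 6.34 at 0 h (0.45 ± 0.18, adjusted p = 0.179). The 24 h replicates of DHX58 differed more from each other than the lower of them did from the 0 h arrays. DDX60, an interferon-induced helicase, read 6.67 and 5.65 at 24 h and 6.12 and 6.41 at 0 h (-0.11 ± 0.36), with both 0 h values between the 24 h values. RIGI, the RIG-I sensor formerly named DDX58 and outside the symbol rule for that reason, read 5.63 and 5.62 at 24 h and 5.49 and 5.54 at 0 h (0.11 ± 0.10, adjusted p = 0.521). IFIH1, the MDA5 sensor, stood at 0.15 ± 0.26. INTS6L, formerly DDX26B and a paralog of an Integrator subunit, read 5.28 and 5.17 at 24 h, where neither array exceeded background, and 5.94 and 5.61 at 0 h. It was kept through its 0 h arrays alone, and no direction is read from it.

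DDX11, a DNA helicase that aids the pairing of sister chromatids, read 9.08 and 9.01 at 24 h and 9.35 and 9.19 at 0 h (-0.22 ± 0.12, adjusted p = 0.278). That is its brighter kept probe. The dimmer one read 5.05 and 6.73 at 24 h and 5.95 and 5.97 at 0 h (-0.08), so the groups overlapped there. In the mitochondrion, DHX30 and DDX28, both linked to assembly of the mitochondrial ribosome, stood at -0.16 ± 0.11 and 0.19 ± 0.14. The second probe of DHX30 stood at 0.06, and DDX28 stood at 0.04 without the second 24 h replicate and 0.04 with 75th percentile scaling, so neither has a settled direction. DDX50, a nucleolar paralog of DDX21, stood at -0.10 and DDX59 at -0.16. DDX43, known from testis and tumours, read 4.79 and 5.55 at 24 h and 4.76 and 5.71 at 0 h (-0.06 ± 0.42), near background, and was detected on 1 array of each group. The germ-cell helicases DDX4 and DDX53, DDX3Y and the less studied DHX57 were not detected on at least 2 arrays and were not tested.

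The call of single helicases depended on the processing setting. Under 6 of 14 alternatives between 1 and 15 helicases passed, and under the other 8 there were 0. With a variance prior that follows the signal level and resists outliers, 15 passed, 14 lower and 1 higher, against 22.9% of all genes; 15 of 48 is 31.3%. Without background correction 12 passed (25% of them, against 19.8% of all genes). With a stricter detection filter 8 of 46 did (17.4% against 12.7%), and with a background offset of 50 the number was 7 (14.6% against 12.3%). Scaling to the 75th percentile gave 4 (8.33% against 6.54%), and the authors' log2 table gave 1 (2.08% against 3.52%). DDX19A passed under all 6, and DDX54, DDX3X and DHX37 under 5 each. DHX9, DDX49 and DHX32 passed under 4 each.

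**Figure D5:**
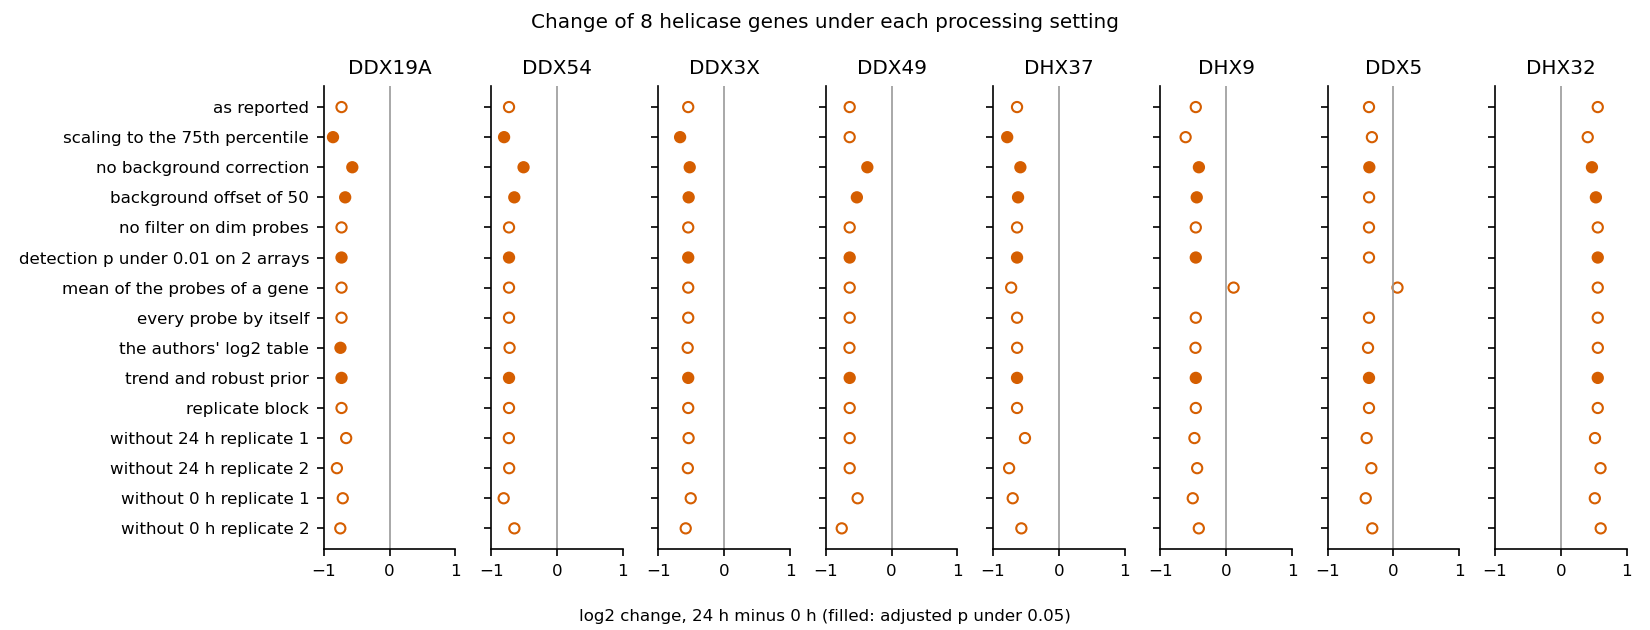
Log2 change at 24 h minus 0 h (horizontal axis) of 8 helicase genes under the reported processing and 14 alternatives (rows), filled where limma's adjusted p is under 0.05. DDX19A, DDX54, DDX3X, DDX49 and DHX37 stay below 0 and DHX32 above 0 in all rows, while DHX9 and DDX5 turn to 0.11 and 0.06 with the mean of their probes.

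Genes that work with these helicases were read from lists of partners. Of 77 tested ribosome assembly factors that are no DDX or DHX helicase, 63 lay below 0 and 14 above, with a median of -0.19 and 0 past the threshold. At an unadjusted p under 0.05, 22 of the 77 were lower and 1 higher, beside 15.3% of all tested genes lower and 15% higher. In either direction the share was 29.9%, against 30.3% of all tested genes. RRP12, an export and maturation factor, stood at -0.89 ± 0.15 (adjusted p = 0.0542) and UTP14A, whose yeast counterpart activates the DHX37 counterpart, at -0.84 ± 0.14 (adjusted p = 0.0539). On the other side, the endonuclease NOB1 stood at 0.38 ± 0.10 and PWP2 at 0.30 ± 0.13. Both 24 h arrays lay below both 0 h arrays in 62.3% of these factors, against 31.3% of all tested genes and 85.7% of the ribosome assembly helicases.

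Of 62 spliceosome components, 39 lay below 0, the median was -0.07, and 2 fell (3.23%, against 2.28% of all tested genes called, so near the background): MAGOHB of the exon junction complex (-1.62 ± 0.16, adjusted p = 0.0447) and SNRNP48 of the minor spliceosome. SNRNP48 read 7.14 and 7.20 at 24 h and 8.01 and 8.02 at 0 h, a log2 change of -0.85 ± 0.10 (adjusted p = 0.0456). With any 1 of the 4 arrays left out, without the filter on dim probes, with every probe tested by itself or with the replicate number as a block, limma called 0 genes, so both calls were lost there. PPIE stood at 0.49 ± 0.14 and SNRPA at 0.32 ± 0.11. Of 29 helicase cofactors, among them proteins with G-patch and MIF4G domains, 20 lay below 0, the median was -0.19 and 0 passed; after UTP14A came NKRF, a G-patch partner of DHX15, at -0.56 ± 0.19, and on the other side RBM5 at 0.58 ± 0.11 and MIF4GD at 0.53 ± 0.10. At an unadjusted p under 0.05 there were 9 lower and 2 higher of the 29 cofactors, beside 15.3% of all tested genes lower and 15% higher. In either direction the share was 37.9%, against 30.3% of all tested genes.

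The 18 tested RNA helicases that carry other names lay on both sides of 0, with 10 below 0, 8 above, a median of -0.05 and 0 past the threshold. At an unadjusted p under 0.05, 4 of the 18 were lower and 2 higher, beside 15.3% of all tested genes lower and 15% higher. In either direction the share was 33.3%, near the 30.3% of all tested genes. SNRNP200, the Brr2 helicase of the spliceosome, stood at -0.55 ± 0.13, DICER1 at -0.42 ± 0.13 and the translation helicase EIF4A1 at -0.36 ± 0.11. HELZ2 stood at 0.66 ± 0.15 and ASCC3 at 0.56 ± 0.19. The difference between these helicases and the DDX and DHX genes was not tested. Of 14 partners in RNA sensing, 8 lay below 0 and 0 passed. At an unadjusted p under 0.05, 2 of the 14 were lower and 1 higher, beside 15.3% of all tested genes lower and 15% higher. In either direction the share was 21.4%, against 30.3% of all tested genes. The antiviral ZC3HAV1 stood at -0.54 ± 0.14, the kinase TBK1 at -0.50 ± 0.10, the RIG-I ubiquitin ligase RNF135 at 0.64 ± 0.12 and IKBKE at 0.31 ± 0.12.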

How the data were processed

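The deposited table holds, per the file headers, a mean bead intensity and a detection p-value for each probe of 4 arrays from 1 slide; the authors' processed table holds log2 values, with limma named per the submitters' processing notes and no version or steps given in the sources read here. Each column of that table had a correlation across probes of 0.99998 with neqc values of the same array, with medians of 5.35 to 5.36, so its scale was read as log2, uncentred. Intensities were normalized with neqc of limma 3.58.1 (R 4.3.3; offset 16), which uses the detection p-values to model background. Probes detected (p under 0.05) on at least 2 arrays were kept, 20361 in all, and named by the platform annotation where it gave 1 symbol; each gene was read from its brightest kept probe. The 11030 genes were fitted with lmFit and eBayes, 24 h minus 0 h, and p-values were two-sided with Benjamini-Hochberg adjustment over all of them. The fit was tested on simulated data.

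Values on all arrays are given for the members with the largest changes each way in a role group whose arrays do not overlap, for the smallest changes, and for DDX3X, DDX5, DHX9, DDX6, DDX11 and the RNA sensors; partner genes are those past the threshold and the 2 largest changes each way. DDX21, DDX39A, DDX17, EIF4A1, IFIH1 and INTS6L were added after their values were seen. The members and lists were chosen with earlier results of these data known. The number of arrays limits the precision.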

Additional observations from a re-analysis of the deposited data

How the results depend on the processing

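Over all genes, limma called 721 with scaling to the 75th percentile, 2184 without background correction, 1357 with an offset of 50, 1240 with the stricter detection filter, 388 from the authors' log2 table and 2522 with the trend and robust prior, against 251 as reported; it called 0 without a filter, 0 with every probe by itself, 0 with the replicate block and 0 to 0 with any 1 array left out. Called helicases numbered 4, 12, 7, 8, 1 and 15 under the first 6 in that order, and 0 under the others, the mean of probes included. The cause was not tested. The median of all helicases was -0.31 with the 75th percentile (the 5515 brightest of all genes -0.13), -0.16 without background correction, -0.12 with the mean of probes and -0.16 with every probe by itself. The medians of ribosome assembly and splicing helicases were -0.38 and -0.27 with the 75th percentile. That of other helicases was -0.31 there, -0.10 with the mean of probes, -0.10 with every probe, and -0.22 to -0.16 with 1 array left out. Signs turned for DDX27 (-0.031), DDX43 (0.27) and DDX60 (0.080) with the 75th percentile, and for DDX5 (0.061) and DHX9 (0.11) with the mean of probes. With 1 array left out the ranges were -0.12 to 0.041 for DDX1, -0.54 to 0.41 for DDX43, -0.33 to 0.0041 for DDX59 and -0.61 to 0.40 for DDX60. The other 41 helicases kept their sign under the alternatives that gave them a value (13 for DDX6, 14 for the rest), but 5 of the 14 leave the change of a gene's brightest probe as it is by construction. Same-numbered replicates deviated together across genes (r = 0.15, with 2 pairs), the labels do not say that a number marks a shared culture, and the block gave 0 helicase calls, as did the reported fit, which says nothing about stability. With 2 arrays a group, leaving out 1 leaves a lone array that is assumed to vary like the other group.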
